A study of Mus musculus with 4 samples.

Results

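The genes that switch plasminogen activation on and off and that start clotting in tissue were followed in the BALF (bronchoalveolar lavage fluid) cells of bleomycin-administered mice. The set held 9 genes: Plau, Plaur, Plat, Serpine2, Serpinb2, F3, F7, F10 and F13a1. Their members were all probes, control spots left out, whose transcript accession mapped to one of these symbols, which gave 13 probes of the 39429 on the array and 9 genes of the 20832 named there. These genes were picked with the genotype contrast of the same arrays in view, so their differences are given as a description, without a test.

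Both groups had received bleomycin by intraperitoneal injection, 0.035 U/g 2 times a week, and RNA of BALF cells was taken on day 22; no array of saline-administered mice was among the samples. One group was wild-type and the other S1pr2-/-, a null of the sphingosine-1-phosphate receptor S1PR2 on a mixed background backcrossed once to C57BL/6J, in young adult mice, with the wild-type mice as littermates. Each genotype had 2 arrays, and the comparison asks how loss of S1PR2 alters transcripts in these cells. The labels speak of 2 independent experiments and do not say whether an array held cells of several mice, so the spread between 2 arrays may be partly technical. All 4 arrays lay on 1 slide with 1 scan.

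Plasminogen is cut to plasmin, the protease that dissolves fibrin, by urokinase (Plau) and by tissue-type activator (Plat). Urokinase works at the cell surface while bound to its receptor (Plaur), and both activators are blocked by serpins, among them PAI-2 (Serpinb2) and protease nexin-1 (Serpine2). In the opposite direction, tissue factor (F3) binds factor VII (F7) and activates factor X (F10), thrombin then forms fibrin, and factor XIII (F13a1 is its A subunit) crosslinks it. Fibrin turnover in the airspace is a classical theme of lung injury, and lung macrophages are known to make several of these proteins.

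The values below are the processed Cy3 intensity of a probe divided by the 75th percentile of its array, called relative signal, and log2 of it, with a floor at 0.01; relative signals of different probes cannot be ranked against each other. The 75th percentiles lay between 2489 and 2817 intensity units, 67.6% to 72.2% of probes were well above background and 0 spots were saturated. The S1pr2 probe went against the labels: wild-type gave a relative signal of 0.915 and 0.896, and the arrays labelled S1pr2-/- gave 6.35 and 5.83, which is 6.72-fold more. Whether this probe lies in the disrupted stretch was not tested, so every direction below rests on the labels. The arrays were labelled as alveolar macrophages, and 10 of 10 alveolar macrophage markers passed the detection filter, with a summed relative signal of 708 and 762 in wild-type and of 709 and 764 on the arrays labelled S1pr2-/-. Markers of eosinophils, neutrophils, T cells, B cells and airway epithelium were measured too, so the libraries held other cells as well. In such bulk RNA, fewer cells of a type and less RNA per cell cannot be told apart.

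RefSeq sequence of the 250 bases before the transcription start (build GRCm38.p6) was at hand for 7 of the 9 genes, in 9 windows; Plau and Plat had no entry. A small set of short motifs was searched on both strands and is named below. The 3 genes with an AP-1 match, TGANTCA, are shown because their probes behaved differently: Serpinb2 had the largest genotype difference of the set, F3 a small one, and Plaur hardly any. Capitals mark matches to any of the motifs. The windows are chr1:107511173-107511422 on the plus strand for Serpinb2, chr3:121723287-121723536 on the plus strand for F3, and chr7:24462233-24462482 on the plus strand for Plaur.
Serpinb2: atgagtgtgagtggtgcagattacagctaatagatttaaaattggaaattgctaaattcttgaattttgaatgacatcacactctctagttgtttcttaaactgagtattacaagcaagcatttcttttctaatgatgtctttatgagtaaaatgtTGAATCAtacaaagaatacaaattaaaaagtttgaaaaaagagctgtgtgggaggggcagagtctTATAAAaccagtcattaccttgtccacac
F3: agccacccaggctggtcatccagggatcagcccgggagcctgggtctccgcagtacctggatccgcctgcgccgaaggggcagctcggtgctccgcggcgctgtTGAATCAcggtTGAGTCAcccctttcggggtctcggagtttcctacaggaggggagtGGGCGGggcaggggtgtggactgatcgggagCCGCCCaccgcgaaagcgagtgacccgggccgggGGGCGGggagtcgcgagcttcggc
Plaur: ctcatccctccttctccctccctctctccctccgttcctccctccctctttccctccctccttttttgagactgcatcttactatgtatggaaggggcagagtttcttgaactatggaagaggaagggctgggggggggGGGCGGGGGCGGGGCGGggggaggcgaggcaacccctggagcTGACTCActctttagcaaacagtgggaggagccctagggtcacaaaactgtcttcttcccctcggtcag
The Serpinb2 window held the AP-1 letters 94 bases before the start and a TATA box, TATAAA, 29 bases before it, and no GC box, GGGCGG. The F3 window held 2 AP-1 matches, 146 and 135 bases before the start, and 3 GC boxes, and the Plaur window 1 AP-1 match and 3 GC boxes that partly overlap. Over all 32536 mouse windows of this length, 6.73% held the AP-1 letters, 12.3% the TATA box and 33.0% the GC box. The GATA letters AGATAA (9.97% of windows) were found only in a second Serpinb2 window further downstream, and CRE, TGACGTCA (1.56%), and the STAT6 motif (5.89%) in none of the 9. Serpine2 held 6 GC boxes and neither AP-1 nor TATA letters, and F7, F10 and F13a1 held none of the motifs searched. A match is a description of the letters and not evidence of a bound factor.

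Serpinb2, which encodes PAI-2, the clade B serpin that inhibits urokinase and is mostly kept inside the cell, had the largest difference of the 9 genes. In wild-type its relative signal was 0.360 on replicate 1 and 0.768 on replicate 2, and on the arrays labelled S1pr2-/- it was 0.0235 and 0.0247. Both S1pr2-/- arrays were far below both wild-type arrays, yet all 4 were well above background. The log2 values averaged -0.93 ± 0.77 for wild-type and -5.38 ± 0.05 for S1pr2-/- (SD, n = 2 each), a difference of -4.45 with a standard error of 0.43 from limma, or 21.8-fold lower. It was the tenth lowest difference of the 27161 probes that passed the detection filter. The wild-type arrays differed 2.13-fold between themselves, with replicate 2 the higher. With a normexp background correction in place of the scanner software's own, the difference shrank to -3.48 on the log2 scale, and with wild-type replicate 1 or 2 left out it was -5.00 or -3.90.

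Eosinophil markers that passed the filter were lower together with Serpinb2. Lists of other leukocytes had smaller median log2 differences, from -0.72 for B cells to 0.54 for monocyte-derived macrophages. Of all probes, 21.8% were lower and 20.0% higher on both arrays labelled S1pr2-/-. Of 6 eosinophil markers 5 passed the filter and all 5 were lower on both arrays labelled S1pr2-/-, 4 of them past 2-fold, with a median log2 difference of -4.47. The summed relative signal of the list was 5.59 and 13.3 in wild-type and 2.35 and 3.67 on the other 2 arrays, again with wild-type replicate 2 the highest. Ear6, the kept marker not past 2-fold (-0.79), made up most of the sum on the arrays labelled S1pr2-/-. Epx, eosinophil peroxidase, was at the floor on one array labelled S1pr2-/-, and Prg3 was near or at the floor on all 4. Of 9 neutrophil markers on the array 8 passed the filter, and 5 were lower on both arrays labelled S1pr2-/-. Past 2-fold lower were 2, Retnlg at -4.81, also highest on wild-type replicate 2, and S100a9 at -1.46. S100a8 (0.25) and Ltf (0.36) had positive differences with overlapping arrays. The median log2 difference of that list was -0.30, its summed relative signal was 85.9 and 96.4 in wild-type against 69.5 and 63.2, and Ngp was below background on every array. Of 8 T cell markers, all of which passed, 4 were lower on both arrays labelled S1pr2-/-, with sums of 52.2 and 59.0 against 43.2 and 48.0. Csf3r gave the largest part of the neutrophil sums, and Cd2, with overlapping arrays, of the T cell sums. The part of eosinophils or of any other leukocytes in the Serpinb2 values was not tested.

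The 5 genes whose pattern over the 4 arrays was nearest to that of Serpinb2, by Euclidean distance of log2 values centred on each probe's mean, were Ldhc (0.32), Cebpe (0.48), Epx (0.53), Padi4 (0.60) and Ccr3 (0.62). Ldhc encodes a lactate dehydrogenase known from the testis, Cebpe a transcription factor of granulocyte maturation, Padi4 an enzyme of granulocytes that turns arginine into citrulline, and Ccr3 the eotaxin receptor of eosinophils. Their differences lay between -4.80 and -4.37 on the log2 scale. Ldhc had reached the floor in both S1pr2-/- samples and Epx on S1pr2-/- replicate 1, so their distances rest on a limit there. All 5 were higher on wild-type replicate 2 than on replicate 1, as Serpinb2 was. The 5 were chosen by distance on these same 4 arrays, so this likeness follows from the choice and nothing is read from it.

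**Figure D1:**
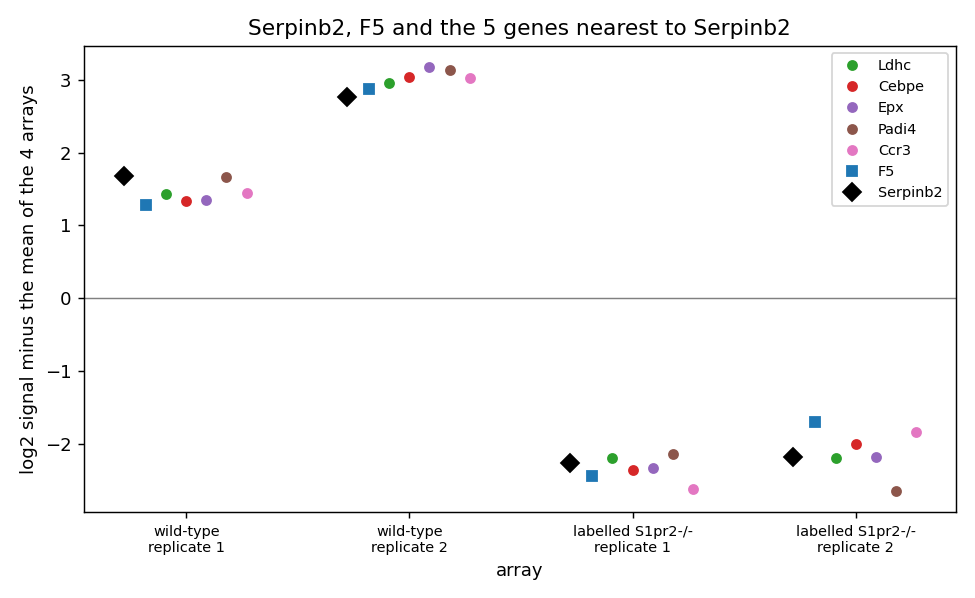
Log2 relative signal of Serpinb2, F5 and the 5 genes nearest to Serpinb2 on each of the 4 arrays, each gene minus its own mean of the 4 arrays. Points are single arrays. Every gene sits above its mean on both wild-type arrays, higher on replicate 2, and below it on both arrays labelled S1pr2-/-. The 5 nearest genes were chosen for this pattern.

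The other inhibitor in the set, Serpine2, encodes protease nexin-1, which blocks thrombin and both plasminogen activators. Its relative signal was 0.0137 and 0.0131 in wild-type and 0.0224 and 0.0172 on the arrays labelled S1pr2-/-. The S1pr2-/- arrays were the higher ones without overlap, and all 4 values were close to the floor although well above background. The log2 difference was 0.55 with a standard error of 0.16, or 1.46-fold. It was 0.24 with normexp, and under the scaling by the 75th percentile of detected probes all 4 arrays fell to the floor and had no order. Of 6 fibroblast markers 5 passed the filter and 4 were higher on both arrays labelled S1pr2-/-, where 20.0% of all probes were. The summed relative signal of the list was 0.270 and 0.265 in wild-type and 0.669 and 0.363 in S1pr2-/-. Lum was below background on every array. The part of fibroblasts in the Serpine2 values was not tested.

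The activators and the receptor differed little. Plau, urokinase, had a relative signal of 0.313 and 0.248 in wild-type and of 0.362 and 0.252 on the arrays labelled S1pr2-/-. The genotypes overlapped, with replicate 1 the higher array in each, and the log2 difference of 0.12 was smaller than the gap between the arrays of either genotype. Plaur, the urokinase receptor, gave 15.9 and 17.6 in wild-type and 16.0 and 17.2 in S1pr2-/-. Its arrays overlapped as well, and the log2 difference of -0.02 had a standard error of 0.09. The sign of both differences turned when wild-type replicate 2 or S1pr2-/- replicate 1 was left out.

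Plat, tissue-type activator, which endothelium is known to release, was barely above background. Its relative signal was 0.0121 on wild-type replicate 1, at the floor and not well above background on wild-type replicate 2, and 0.0123 and 0.0133 on the arrays labelled S1pr2-/-. It passed the detection filter through the arrays labelled S1pr2-/- alone. Its log2 difference was 0.22, and under normexp -0.0034. Of 6 endothelial markers Tek, Cldn5 and Tie1 were below background on every array, and Kdr, Pecam1 and Cdh5 were well above it on all 4. Cdh5 was nevertheless at the floor on replicate 2 of each genotype and near it on replicate 1. The part of endothelium in the Plat values was not tested.

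**Figure D2:**
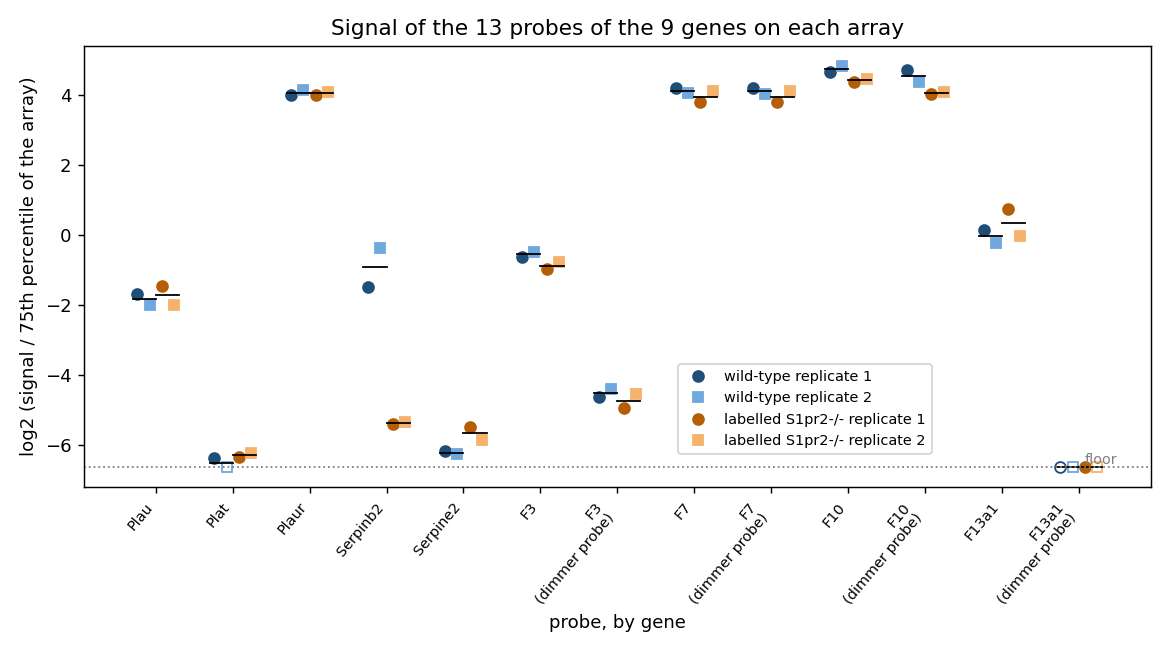
Log2 relative signal (intensity over the 75th percentile of the array) of the 13 probes on the 4 arrays; black bars are the means of 2 arrays, open symbols are arrays on which the probe was not well above background, and the dotted line is the floor. Heights of different probes cannot be compared; within a probe, Serpinb2 shows by far the widest gap between wild-type and the arrays labelled S1pr2-/-.

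Tissue factor, F3, the membrane receptor that starts clotting, was slightly lower on both arrays labelled S1pr2-/-. The relative signal was 0.643 and 0.721 in wild-type and 0.507 and 0.583 in S1pr2-/-. The groups did not overlap, and the log2 difference was -0.33 with a standard error of 0.12, or 1.25-fold lower. A second, dimmer F3 probe gave 0.0407 and 0.0476 against 0.0323 and 0.0425, with overlapping arrays and a difference of -0.25. Of 11 markers of airway and alveolar epithelium, a tissue known for tissue factor, 7 were also lower on both arrays labelled S1pr2-/-. Beside them stood 21.8% of all probes, and the median log2 difference of the 11 markers was -0.34. Their summed relative signal, 46.9 and 55.1 against 41.1 and 65.8, overlapped, and the part of epithelial cells was not tested.

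Factor VII, the partner of tissue factor, and factor X, its substrate, are best known as liver proteins. F7 gave a relative signal of 18.5 and 16.7 in wild-type and of 13.9 and 17.5 on the arrays labelled S1pr2-/-. These arrays overlapped, and the log2 difference of -0.17, with a standard error of 0.15, was smaller than the gap between the S1pr2-/- arrays; a second F7 probe gave -0.17 as well. F10 gave 25.2 and 28.6 in wild-type and 21.0 and 22.2 in S1pr2-/-, without overlap. Its log2 difference was -0.32 with a standard error of 0.09, or 1.24-fold lower, and a second probe, drawn from another transcript entry, gave 26.4 and 20.9 against 16.5 and 17.1, a difference of -0.48 or 1.40-fold, also without overlap. Of 5 hepatocyte markers Alb, Apoa1 and Ttr were below background on all 4 arrays, and Apoa2 and Serpina1a were well above it on all 4. Both F7 probes and both F10 probes were well above background on all 4 as well. The part of hepatocytes in the F7 and F10 values was not tested. The 2 genes start next to each other, their windows opening at chr8:13025784-13026033 and chr8:13037058-13037307 on the plus strand.

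F13a1, the catalytic subunit of factor XIII, which monocytes, macrophages and megakaryocytes are known to make, had a relative signal of 1.11 and 0.856 in wild-type and of 1.67 and 0.972 on the arrays labelled S1pr2-/-. The genotypes overlapped, since S1pr2-/- replicate 2 lay between the wild-type arrays. The log2 difference was 0.39 with a standard error of 0.34, and it was -0.0023 without S1pr2-/- replicate 1. A second F13a1 probe lay at the floor on every array. Of 9 markers of monocyte-derived macrophages on the array 5 were higher on both arrays labelled S1pr2-/-, where 20.0% of all probes were. The list had a median log2 difference of 0.54. Its summed relative signal was 132 and 62.5 in wild-type and 147 and 96.9 in S1pr2-/-. Apoe gave the largest part of that sum, at log2 6.16 and 3.74 in wild-type and 6.04 and 5.14 in S1pr2-/-. Of 10 platelet markers 4 passed the filter, Gp1ba, Gp5, Gp6 and Gp9 were below background on every array, and the summed relative signal was 2.44 and 2.51 against 3.79 and 2.14. The part of either cell type was not tested.

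Over the 9 genes, each by its brightest probe, 1 was past 2-fold lower (Serpinb2) and 0 past 2-fold higher, where 1.24% and 0.18% of all 27161 probes were. At 1.5-fold the counts were again 1 and 0, beside 3.62% and 1.15% of all probes. A total of 3 genes were lower on both arrays labelled S1pr2-/- (Serpinb2, F3, F10) and 2 higher on both (Serpine2, Plat), beside 21.8% and 20.0% of all probes; 4 overlapped. The median log2 difference was -0.02, and over all probes it was -0.003. Nothing is read from these counts, since the genes were chosen on this contrast. The count of genes higher on both arrays was 4 without wild-type replicate 1 and 4 without S1pr2-/- replicate 2, 1 under normexp and 0 when scaled by detected probes, where both Serpine2 and Plat lay at the floor.

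**Figure D3:**
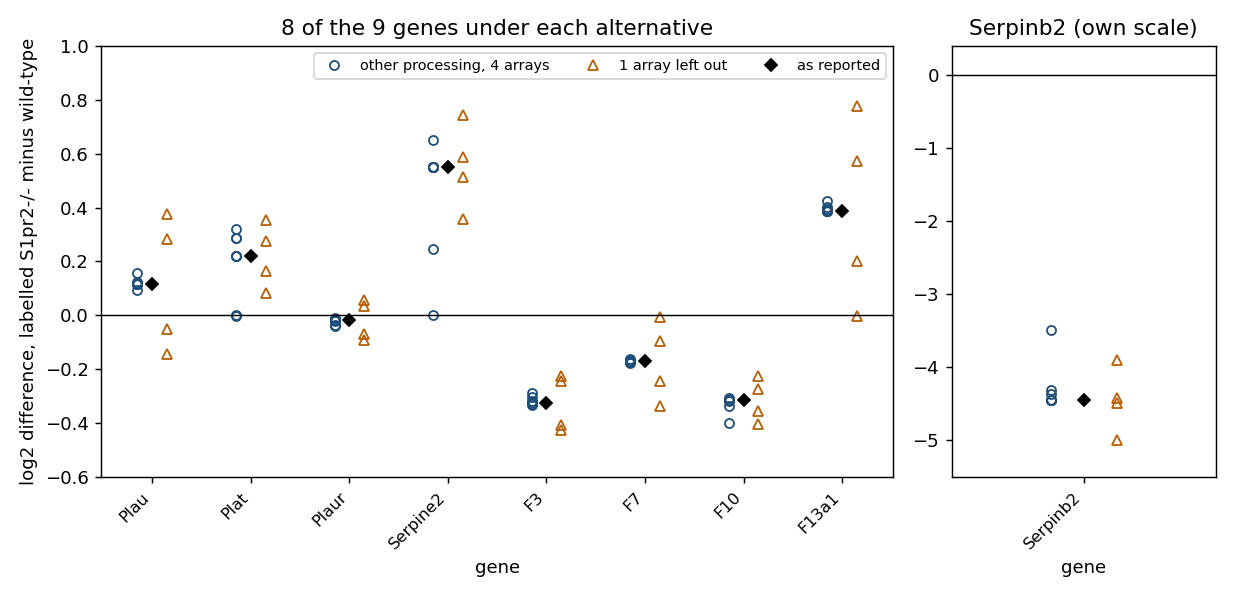
Log2 difference (labelled S1pr2-/- minus wild-type) of each of the 9 genes as reported (diamonds), under each other processing of all 4 arrays (circles) and with 1 array left out (triangles). Serpinb2, on an axis of its own, stays between -5.00 and -3.48, while Plau, Plaur, Plat and F13a1 reach both sides of 0.

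The rest of the system was examined in 43 further genes of plasmin formation, the clotting cascade, the anticoagulants, the thrombin receptors and vitamin K-dependent carboxylation. Of these, 31 passed the detection filter and 8 were below background on every array. Among the 8 were prothrombin (F2), the fibrinogen chains Fgb and Fgg and the factor XIII B subunit F13b, all known as liver products. Other genes known from the liver, among them F9, Klkb1 and Serpinc1, were well above background on every array. The third fibrinogen chain, Fga, passed the filter on values near the floor. In limma, 0 of the 31 genes passed an adjusted p of 0.05 (Benjamini-Hochberg over 27161 probes; adjusted p from 0.509 to 0.974), as did 0.0% of all probes in either direction. At an unadjusted p under 0.05, 1 gene was lower and 4 were higher, where 5.59% and 3.99% of all probes were, and the methods' test on the same values gave 4 genes in all. The median log2 difference of the 31 was 0.07.

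Of these genes 1 was past 2-fold lower and 0 past 2-fold higher, where 1.24% and 0.18% of all probes were. The lower one was F5, which encodes factor V, the cofactor of factor X. Its relative signal was 0.469 and 1.41 in wild-type and 0.0355 and 0.0597 on the arrays labelled S1pr2-/-. All 4 arrays were well above background and the groups were far apart, with wild-type replicate 2 the highest, as for Serpinb2 and the eosinophil list. The log2 difference was -4.15 with a standard error of 0.69, or 17.7-fold lower, and limma's adjusted p was 0.509 (0.368 to 0.682 over the alternatives). A second F5 probe gave -3.88. Without wild-type replicate 1 the difference was -4.94 and without replicate 2 it was -3.35; in the latter case 2 genes were past 2-fold lower, the other being Cpb2. The part of eosinophils and neutrophils, whose summed marker signals are given above, was not tested for F5 either.

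Cpb2, a carboxypeptidase that protects fibrin from plasmin, had the lowest log2 difference of the plasmin side, -0.64, carried by wild-type replicate 1 alone, at 0.146 against 0.060, 0.060 and 0.061 on the other arrays; without that array it was 0.0010. The plasminogen gene itself, Plg, did not pass the filter.

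The remaining groups spanned smaller differences. Among the clotting factors the highest was Klkb1, plasma prekallikrein, at 0.32. Among the anticoagulants Serpinc1, antithrombin, was lowest at -0.46 and Serping1, the C1 inhibitor, highest at 0.44. A second, dimmer Serping1 probe gave 0.69, with wild-type replicate 1 at the floor and not well above background. F2r, the thrombin receptor PAR1, was the only one of 4 protease-activated receptors that passed the filter, at -0.13, and its sign turned without wild-type replicate 2 (0.10) or S1pr2-/- replicate 2 (0.068). In the carboxylation group Gas6, a vitamin K-dependent ligand, stood highest at 0.42 and Vkorc1l1, an enzyme that recycles vitamin K, lowest at 0.17. None of these passed an adjusted p of 0.05 in limma.

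**Figure D4:**
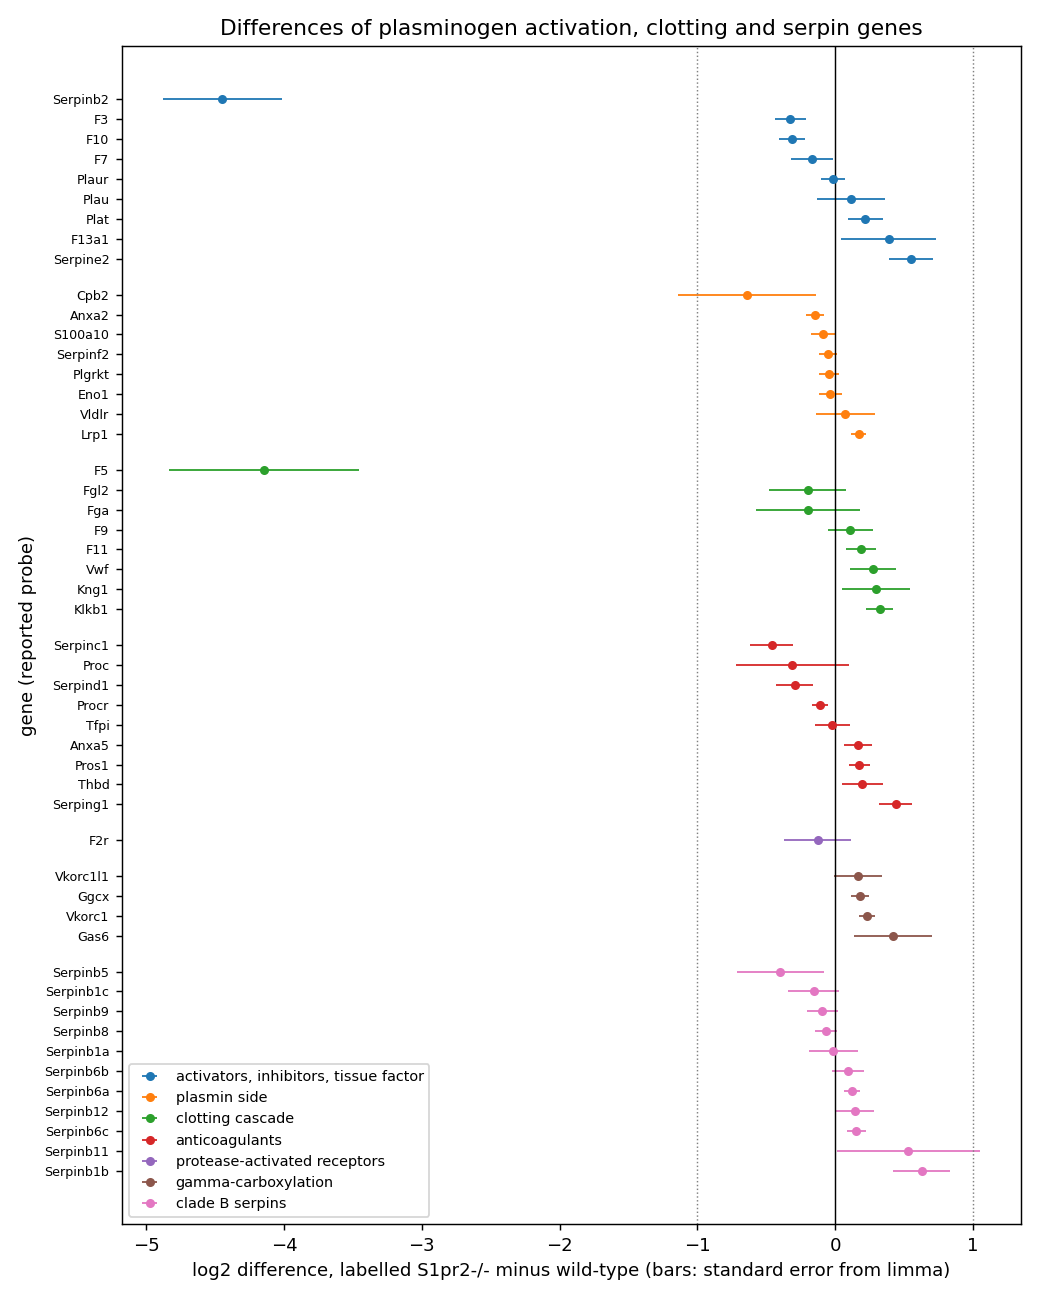
Log2 difference (labelled S1pr2-/- minus wild-type) of the brightest probe of the reported genes that passed the detection filter, by group, with standard errors from limma; dotted lines mark 2-fold. Serpinb2 (-4.45) and F5 (-4.15) lie far to the left of all others, which stay between -0.64 and 0.63.

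The closest relatives of Serpinb2 are the other intracellular serpins of clade B. Of 16 such genes 11 passed the detection filter, 0 passed an adjusted p of 0.05 in limma, 0 had an unadjusted p under 0.05 there, and 0 did by the methods' test. Of all probes 0.0% passed the adjusted p in either direction, and 5.59% lower and 3.99% higher had an unadjusted p under 0.05 in limma. None of the 11 genes was past 2-fold, where 1.24% of all probes were lower and 0.18% higher. On both arrays labelled S1pr2-/-, 0 of the 11 were lower and 3 higher, beside 21.8% and 20.0% of all probes. The median log2 difference of the 11 was 0.09. Serpinb1b, a close relative of the neutrophil elastase inhibitor Serpinb1a, was highest at 0.63 with a standard error of 0.21, and Serpinb5, maspin, lowest at -0.40 with a standard error of 0.32, on values near the floor. Without wild-type replicate 2, 1 gene of the 11 was past 2-fold higher. The difference between Serpinb2 and these relatives was not tested, since Serpinb2 was chosen on this contrast.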

How the data were processed

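BALF cell RNA was hybridised to 1-color Agilent arrays, 2 per genotype. The authors deposited per-spot intensity output of Feature Extraction, with background corrected (version 10.7.3.1 in the submitters' processing notes, 11.0.1.1 in the file header). They also deposited a log2 table, used as an alternative: after constants of at most 0.0123, 100% of 39359 probes lay within 0.01 of the scaled intensities centred on wild-type, with column medians of 0.0227, -0.0227, -0.0579 and -0.0344; no scale, centring or direction stayed unknown.

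Intensities without spots flagged as outliers (115 to 273 an array) were divided by the array's 75th percentile, floored at 0.01 and logged. Probes were named through RefSeq accessions (69.6% of 39429). Probes with a value on every array that both arrays of a genotype showed well above background were kept (27161) and fitted with limma 3.58.1 in R 4.3.3, without covariates, with Benjamini-Hochberg adjustment. A gene's brightest probe is reported. Named were the 9 genes, S1pr2, listed genes past an adjusted p of 0.05 or past 2-fold, the highest and lowest of each list (1 of them is not reported here), and the 5 probes nearest to any of the 9 past 2-fold; other names were chosen after their values were seen. The 9 genes and all lists were chosen with earlier results of these data known. The scripts were tested on simulated data. Alternatives were quantile normalization, the percentile over detected probes, normexp (offset 50, on median signals), the authors' table, no floor, other filters, flagged spots kept, trended variances, the methods' test, a replicate block, and each array left out. The number of arrays limits precision: a permutation test of 2 against 2 cannot go below p = 0.333. Slide and scan held all arrays, so no batch could be tested.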

Additional observations from a re-analysis of the deposited data

How the results depend on the processing

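Of 480 values recomputed under alternatives, 460 kept their side of the test, stayed within 1.5 times a count or moved by less than the spread between replicates. A further 17 moved more, and 3 of the tested values changed sign. For the 9 genes without a test, leaving out 1 array cannot move a difference past that spread, which is pooled over both genotypes. The replicate block, no filter and flagged spots kept left the differences of these 9 genes unchanged. The 460 is therefore no measure of robustness. Of the 9 genes, 4 (Plau, Plaur, Plat and F13a1) changed sign under some alternative. Over the whole array, normexp called 1 probe lower and 1 higher in limma, where 0 and 0 were called otherwise, also by the methods' test after adjustment. At an unadjusted p under 0.05, 1083 probes were higher, but 1752 with quantile normalization, 1651 with the percentile over detected probes and 627 without wild-type replicate 2. Genes of the 9 higher on both arrays labelled S1pr2-/- numbered 2, but 0 with the percentile over detected probes, 1 under normexp, 1 with only probes detected on all 4 arrays, and 2 to 4 with 1 array left out. With 1 array left out, 1 to 2 of the further plasmin and clotting genes were past 2-fold lower and 0 to 1 clade B serpins past 2-fold higher. With 1 array left out Cpb2 ranged from -1.28 to 0.0010, reversed without wild-type replicate 1, and F2r from -0.36 to 0.10, reversed without wild-type replicate 2 (0.10) and without S1pr2-/- replicate 2 (0.068). Serpinb2 kept its direction everywhere, from -5.00 to -3.48 on the log2 scale, as did F5, from -4.94 to -3.35. The cause was not tested where values moved. With the replicate number as a block 0 probes were called lower and 0 higher, and no other count moved by over 1.5 times (before adjustment, 1456 probes were lower and 975 higher, against 1518 and 1083); same-numbered arrays deviated together with r = 0.19 over 2 pairs, and the labels give them only a number. Serpine2 and Plat lay near the floor, so their differences are limited by signal over background.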
